A study of Mus musculus with 32 samples.

Results

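The immunoglobulin gene segments were followed through sorted mouse blood progenitors in which the splicing factor gene U2af1 had been deleted or mutated. Members were the genes of the count table with a GENCODE M21 biotype of immunoglobulin V, D, J or C gene and a total of at least 10 reads over all 32 libraries. Of the 27728 genes in the table, 147 were members: 81 of the heavy chain locus, 64 of the kappa locus and 2 of the lambda locus. GENCODE annotated 264 such segments, and 181 of them had a row in the table. The heavy members were 76 V segments, 1 J segment (Ighj2) and 4 constant genes (Igha, Ighe, Ighg3 and Ighd), and no D segment reached the threshold. All kappa members were V segments, and the lambda members were Iglv2 and Iglc3. Members were thus chosen by their read totals, so the presence of reads is a description and not a finding. Just outside it lay Ighv8-4 and Ighv1-4 with 9 reads each and Ighv11-1, Ighv1-36, Igkv4-58 and Igkv12-38 with 8 each, and just inside it lay Ighv10-3 and Ighv1-84 with 10 reads each and Ighj2 with 12. The rows of Ighm and Igkc, the constant genes of IgM and of kappa light chains, were not analysed here.

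All libraries came from cells sorted as Lin- cKit+ Sca1-, a gate that holds myeloid and erythroid progenitors; the labels did not list the lineage antibodies. Of the libraries, 15 were made from E14.5 fetal liver. In batch A they were U2af1(flox/flox) without Cre (the flox control, n = 3), Vav1-Cre/U2af1(wt/flox) (heterozygous deletion, n = 3), Vav1-Cre/U2af1(flox/flox) (homozygous deletion, n = 3) and 1 library of Vav1-Cre alone. In batch B they were Vav1-Cre/U2af1(wt/S34F) (n = 4) and the other library of Vav1-Cre alone. The Vav1 promoter makes the Cre active in blood cells. S34F changes 1 amino acid of U2AF1. The other 17 came from adult bone marrow, for which the labels gave no batch. All adult mice carried Mx1-Cre, rTA and a transgene of wild-type U2AF1, written tgU2AF1(WT). The untreated wild type was U2af1(wt/wt) (n = 3), and the dosed mice were U2af1(flox/S34F), received pIpC, which induces Mx1-Cre, and ate chow with doxycycline, with 4 libraries at 1250 ppm, 6 at 2500 ppm and 4 at 10000 ppm. Genotype, pIpC and doxycycline therefore change together between wild-type and dosed mice and cannot be told apart there. The genotypes were not checked from counts, since U2af1 was not analysed here. The labels did not say whether replicates were separate animals, and p-values then measure only the spread between these samples.

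Library totals ran from 26588099 to 71251200 reads, and all 46 pairs of replicates differed by more than counting noise (chi-square per degree of freedom of 3.64 to 462.9). Values per library are counts per 1000000 reads after TMM scaling (CPM), given as mean ± SD. The 6 measured progenitor markers of the gate summed to 8730 to 21627 CPM in fetal libraries and to 16422 to 41645 CPM in adult ones, far above any immunoglobulin sum. In bulk RNA, fewer cells of a type and less RNA per cell cannot be told apart.

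An immunoglobulin chain is assembled from gene segments that lie apart in the genome. In developing B cells the RAG recombinase first joins a D to a J segment and then a V segment to them at the heavy locus, and a V to a J segment at the kappa or lambda locus. Each B cell thus transcribes mainly the V segments it has joined, while unjoined V segments can give low, so-called germline, transcripts. The constant genes set the class of the antibody: Ighd encodes IgD of mature B cells, and Igha, Ighg3 and Ighe encode IgA, IgG3 and IgE, which follow class switching. Plasma cells make the largest amounts of such RNA.

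The heavy members lay on chromosome 12 of GRCm38 between 113254830 and 116000461, all on the minus strand. The kappa members lay on chromosome 6 between 67555497 and 70699067, 24 on the plus and 40 on the minus strand. The lambda members lay on chromosome 16 between 19065230 and 19260859, on the minus strand. V members had 338 to 501 exonic bases (median 360), and 88 of the 141 had 2 exons, a leader and a V exon.

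The 6 V segments below are shown because single libraries or single comparisons turned on them. Ighv11-2 (chr12:114048241-114048812, minus strand) led the heavy V reads of more adult libraries than any other segment. Igkv14-111 (chr6:68256389-68256869, plus) and the pair Ighv3-1 (chr12:113964388-113964818, minus) and Igkv8-27 (chr6:70171809-70172270, minus) each filled most of the V reads of 1 adult library. Igkv8-24 (chr6:70216858-70217421, minus) passed the test in 3 adult comparisons, and Ighv1-77 (chr12:115861867-115862355, minus) had the most fetal V reads. Spans are those of the gene, and the last 150 bases of the annotated coding sequence are printed 5′ to 3′ from the GENCODE M21 transcripts. Capitals mark the last match to TANTNNTGT within the final 40 bases, which ends in the codon TGT of the conserved cysteine before the joint.
Ighv11-2: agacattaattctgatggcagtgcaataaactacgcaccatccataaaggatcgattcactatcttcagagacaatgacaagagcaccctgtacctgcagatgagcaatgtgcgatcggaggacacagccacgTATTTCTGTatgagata
Igkv14-111: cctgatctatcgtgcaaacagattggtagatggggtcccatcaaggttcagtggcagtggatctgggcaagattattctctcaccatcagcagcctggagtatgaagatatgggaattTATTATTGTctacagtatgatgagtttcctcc
Ighv3-1: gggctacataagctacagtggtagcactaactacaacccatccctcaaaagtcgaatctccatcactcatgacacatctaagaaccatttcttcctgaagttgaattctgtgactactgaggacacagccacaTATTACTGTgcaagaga
Igkv8-27: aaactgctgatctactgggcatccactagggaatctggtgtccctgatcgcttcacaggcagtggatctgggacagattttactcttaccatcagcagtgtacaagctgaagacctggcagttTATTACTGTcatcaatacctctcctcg
Igkv8-24: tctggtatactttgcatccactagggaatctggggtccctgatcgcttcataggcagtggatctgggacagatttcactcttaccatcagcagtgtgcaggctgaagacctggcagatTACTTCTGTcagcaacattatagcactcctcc
Ighv1-77: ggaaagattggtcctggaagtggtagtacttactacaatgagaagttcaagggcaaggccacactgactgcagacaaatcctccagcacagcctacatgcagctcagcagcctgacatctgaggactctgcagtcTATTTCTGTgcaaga
The motif was found in the final 40 bases of 73 of 76 heavy and 43 of 64 kappa V members. Over all annotated V genes it was found in 107 of 113 heavy ones (94.7%) and in 62.7% of the kappa ones. On the other strand of those windows it matched 0 heavy and 2 kappa genes. Igkv8-24 and Igkv8-27, of the same family, were 85.2% identical over the coding sequence, and the other pairs of the 6 were 48.2% to 65.5% identical.

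Immunoglobulin reads were mostly adult. The members held 43115 reads in the 17 adult libraries and 684 in the 15 fetal ones, which is 1.56% of all their reads. Reads were found for 146 members in adult and for 31 in fetal libraries. Kappa V reads were all but missing from fetal liver, with 8 reads against 16098 in adult marrow, all 8 from Igkv14-111. Both lambda members had 0 fetal reads. Stage, tissue and library set change together here, so fetal and adult values are a description with no test. The plot of summed CPM by locus shows every library.

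**Figure D1:**
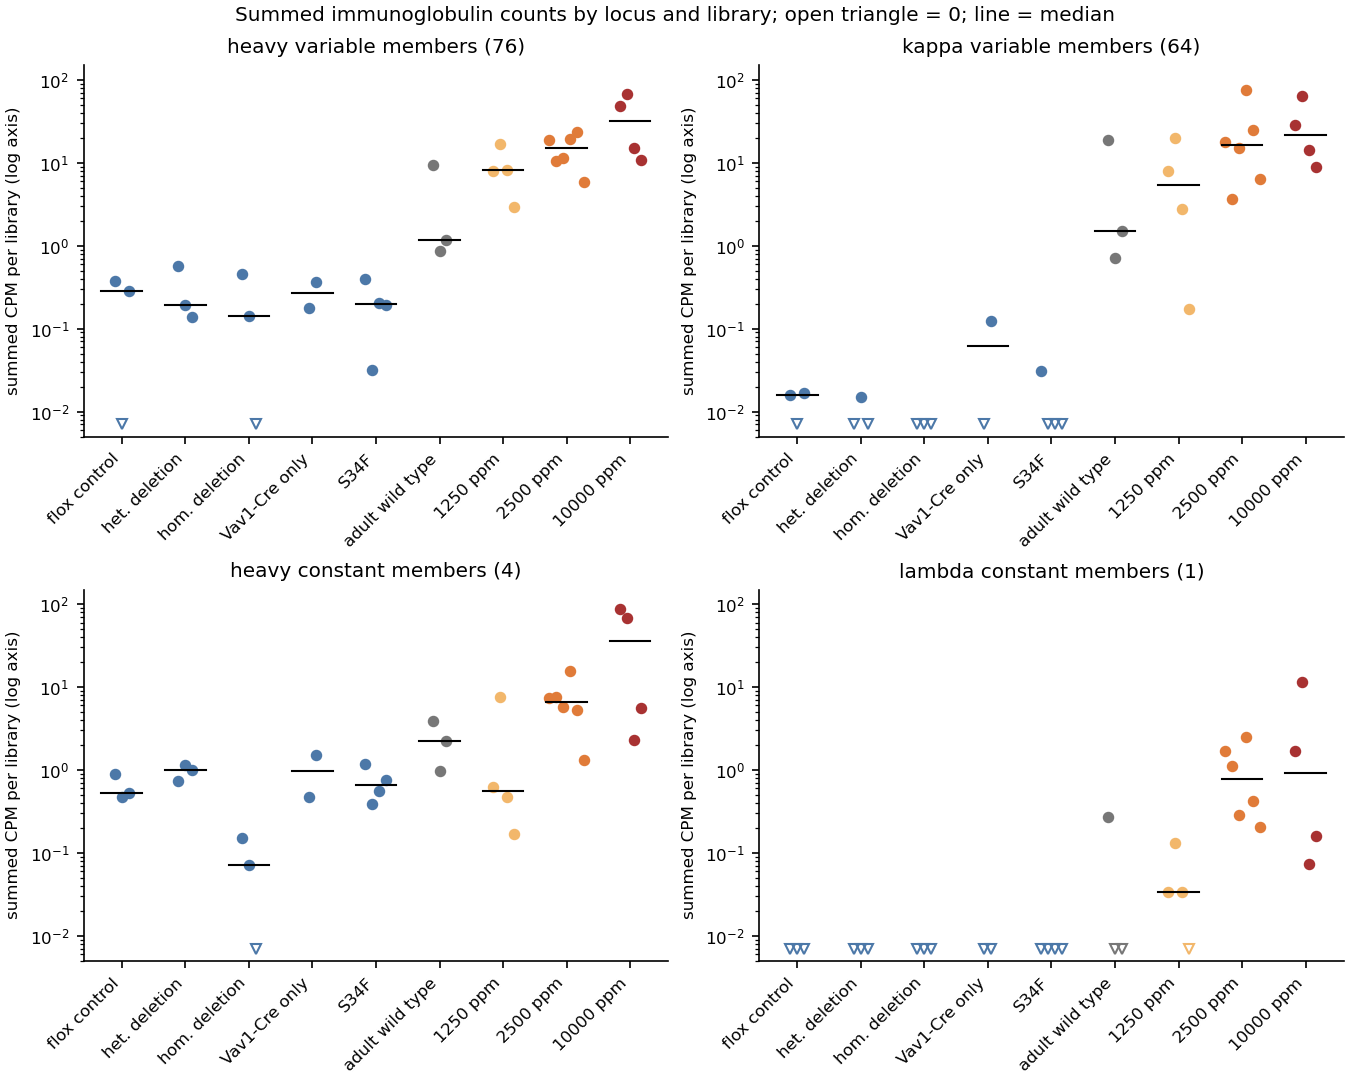
Summed CPM per library (log axis) of the heavy V, kappa V, heavy constant and lambda constant members in the 9 groups. Points are libraries, lines are group medians and open triangles mark libraries at 0. Every adult library lies above every fetal one for heavy V, with the fetal sums at 0.574 or less and the adult ones at 0.875 or more.

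Ighd was the constant gene with the most fetal reads, 439 in all. Flox control libraries had 53, 18 and 28 reads, those with 1 deleted allele 32, 74 and 65 reads, and those of the homozygous deletion 7, 2 and 0. All 3 homozygous libraries lay below all libraries of the flox control and the heterozygous group. These are 0.579 ± 0.225 CPM (SD, n = 3) for the flox control, 0.853 ± 0.279 (SD, n = 3) for the heterozygous and 0.0626 ± 0.0795 (SD, n = 3) for the homozygous deletion. By the quasi-likelihood test of edgeR, with p adjusted over all genes by Benjamini-Hochberg, Ighd was lower in the homozygous deletion than in the flox control (log2 fold change -3.13 ± 0.70 SE, adjusted p = 0.0048). It was also lower than in the heterozygous deletion (-3.70 ± 0.69 SE, adjusted p = 0.00161 by the edgeR test). These comparisons share the homozygous libraries. Of all 12678 genes tested, 41% passed in the first of them (22.4% lower) and 42.3% in the second (22.4% lower). A lower call was thus common among all genes, and with only Ighd tested no share of members can be set beside these. The heterozygous deletion and the flox control did not differ in Ighd (0.57 ± 0.53 SE, adjusted p = 0.793 by the edgeR test), where 0.0316% of all genes passed. Ighd was the only one of the 147 members with enough fetal reads to be tested.

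Most partners of the B-cell receptor moved with Ighd. The sum of their list overlapped between groups, at 578 to 671 CPM in the flox control and 562 to 583 CPM in the homozygous deletion. Of 9 tested genes of the surrogate light chain and receptor partners, 8 were lower in the homozygous deletion than in the flox control and 0 higher, with a median log2 fold change of -3.94 beside -0.02 over all genes tested. Vpreb3, a pre-B-cell protein, fell from 3.39 ± 1.89 to 0.0518 ± 0.0264 CPM (n = 3 each), and Cd79a, a signal chain of the receptor, fell from 9.95 ± 6.59 to 0.534 ± 0.278 CPM. Among 13 transcription factors of the immunoglobulin loci, 9 were lower and 2 higher. Pax5, which holds cells in the B lineage, was at 19.5 ± 12.2 CPM in the flox control and at 0.0471 ± 0.0136 CPM in the homozygous deletion (log2 fold change -8.73 ± 0.62 SE, adjusted p = 7.32e-06 in the edgeR test). Of 7 tested genes of recombination and end joining, 2 were lower and 2 higher, with a median log2 fold change of -0.08. The lower ones were Rag2, a RAG recombinase subunit, at 4.71 ± 2.03 CPM in the flox control and 0.520 ± 0.152 CPM in the homozygous deletion, and Prkdc.

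Markers of other cell types were also called in this comparison. All 9 tested hepatocyte markers were lower, and 6 of 8 macrophage markers were lower and 2 higher. Among T-cell markers 4 of 6, among plasmacytoid dendritic cell markers 4 of 5 and among natural killer cell markers 1 of 3 were lower. Plasma cell markers gave 3 lower and 1 higher of 8, and mature B cell markers 3 lower and 1 higher of 7, beside 41% of all genes that passed and 22.4% that were lower. The hepatocyte markers summed to 94.4 to 579 CPM in the flox control and 11.9 to 29.2 CPM in the homozygous deletion. For macrophage markers these sums were 128 to 136 and 74.9 to 116 CPM. For mature B cell markers they were 100.5 to 103 and 74.2 to 83.1 CPM. The plasma cell sums went the other way without overlap, at 229 to 305 CPM in the flox control and 307 to 348 CPM in the homozygous deletion. Ms4a1, which encodes CD20 of mature B cells, was at 0 in all 3 homozygous libraries and at 0.0168 to 0.0474 CPM in the flox control. The flox control values rest on 3 reads or fewer per library. The part of these cells in the Ighd result was not tested.

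Among the constant genes, only Ighe had most of its reads in fetal libraries, as the V members Ighv1-62-1, Ighv1-77 and Ighv1-23 did. Of the 46 reads of Ighe, 42 came from 11 of the 15 fetal libraries. The 4 others came from the 2500 ppm library of replicate 3. Its highest level was 0.152 CPM, in S34F replicate 1, and it had 0, 1 and 0 reads in the homozygous deletion. Igha had 14 fetal reads in 7 libraries, and Ighg3 had 1.

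**Figure D2:**
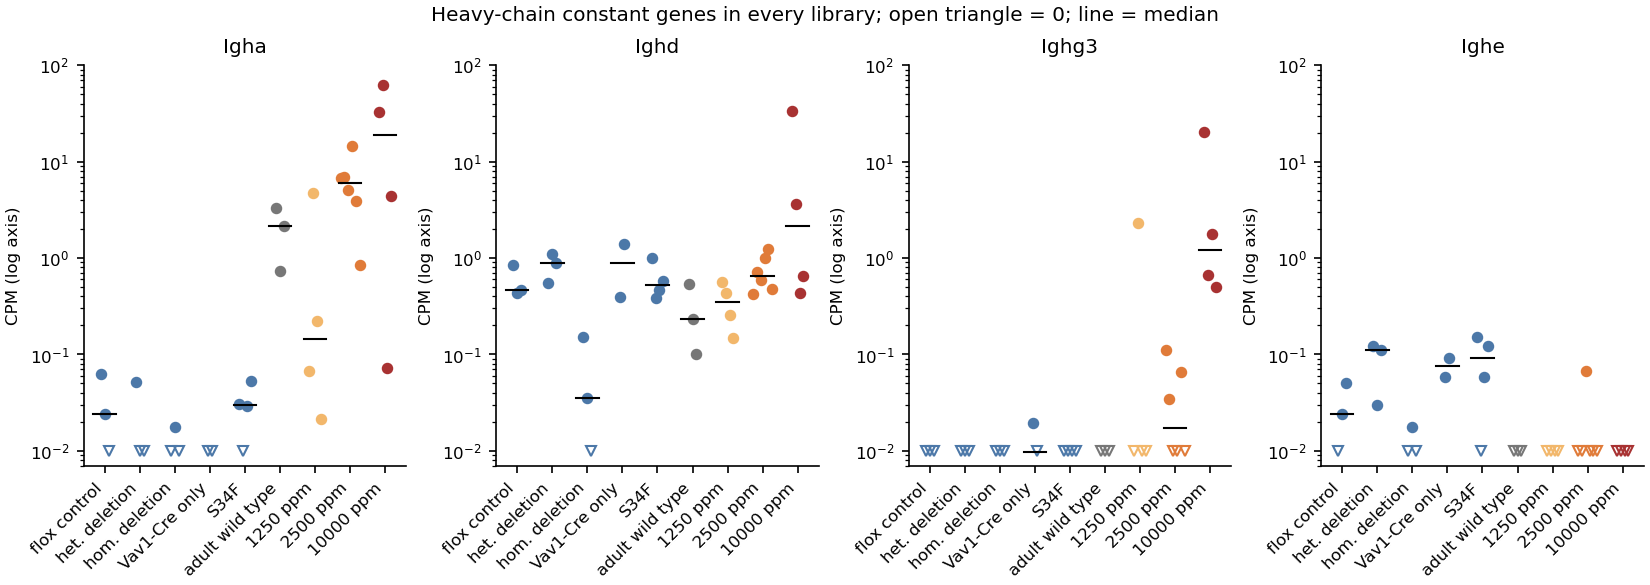
CPM (log axis) of the 4 heavy-chain constant members in every library of the 9 groups, with lines at the medians and open triangles at libraries with 0. Ighd spans 0.385 to 1.41 CPM in the fetal libraries outside the homozygous deletion, and Ighg3 is at 0 in the untreated wild type and above 0 in all 4 libraries at 10000 ppm.

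Fetal V reads came almost entirely from 1 family. Of 179 fetal heavy V reads, 165 fell on Ighv1 segments (92.2%, 95% Wilson interval 87.3 to 95.3), the largest heavy V family, with 39 of the 76 V members. In adult marrow 4617 of 14171 heavy V reads did so (32.6%, 31.8 to 33.4). The intervals cover counting error only, since reads carried no molecular identifiers. By library, the 9 fetal libraries with at least 10 heavy V reads ranged from 76.5% to 100% (median 90.9%). The 17 adult libraries ranged from 7.30% to 59.2% (median 33.8%), so the 2 stages did not overlap. Position gave a like picture, since Ighv1 segments lie toward the far end of the locus: the 38 V members farthest from the constant genes held 91.1% of fetal and 33.7% of adult heavy V reads.

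**Figure D3:**
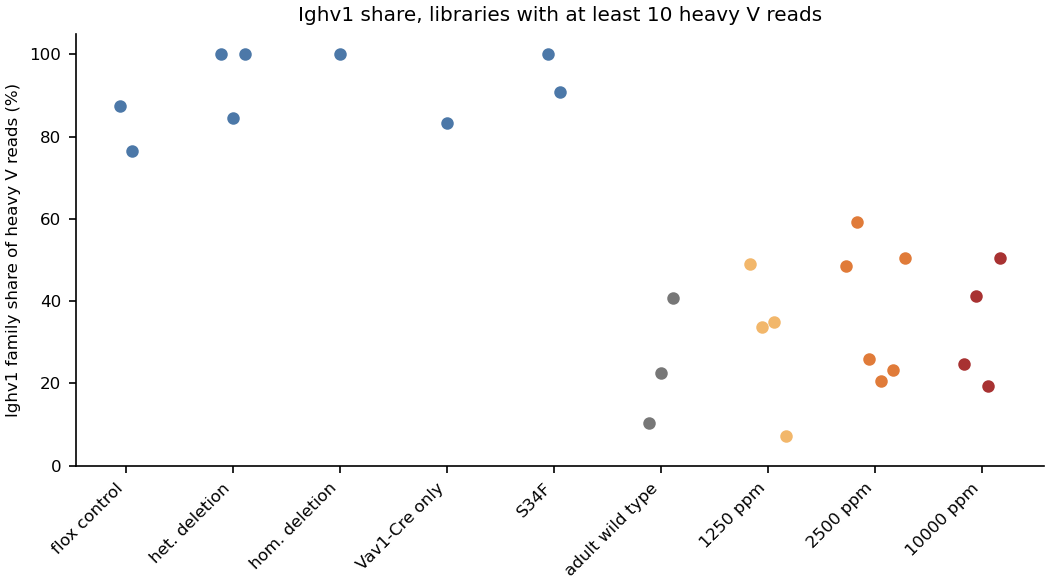
Share of heavy V reads (percent) that fell on the Ighv1 family in each library with at least 10 heavy V reads, by group. The 9 fetal libraries lie between 76.5% and 100%, and the 17 adult libraries between 7.30% and 59.2%.

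Ighv1-77 led the fetal V reads with 53 of its 67 reads, spread over 11 fetal libraries. It had 9, 0 and 1 reads in flox control libraries, 10, 3 and 2 in heterozygous ones and 8, 0 and 0 in homozygous ones. Ighv1-53 had 10 of its 15 fetal reads in the homozygous deletion, 5 each in replicates 2 and 3. All 20 reads of Ighv1-62-1 were fetal, in 8 libraries, and this segment overlaps Gm19331 on the other strand. Summed over heavy V, the homozygous deletion had 21, 8 and 0 reads and the flox control 24, 0 and 17, and the groups overlapped (0 to 0.456 and 0 to 0.379 CPM). A fall like that of Ighd was thus not seen in the V sums, at a depth of 24 reads or fewer per library in these groups.

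The S34F libraries were set beside the only control of their batch, the Vav1-Cre library of replicate 3. Ighd was at 1.01, 0.385, 0.470 and 0.583 CPM in S34F and at 1.41 CPM in the control. Heavy V sums were 0.396, 0.0321, 0.206 and 0.194 CPM beside 0.367 CPM. Kappa V had 1, 0, 0 and 0 reads beside 4. With 1 control library there is no test. In batch A the Vav1-Cre library had 0.393 CPM of Ighd, under every flox control library (0.430 to 0.837 CPM).

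In adult marrow the summed levels differed several-fold between libraries of 1 group. Heavy V members summed to 9.28, 0.875 and 1.18 CPM in the untreated wild type and to 8.07, 16.8, 8.10 and 2.93 CPM at 1250 ppm. At 2500 ppm the lowest, median and highest of 6 libraries were 5.84, 15.1 and 23.3 CPM, and at 10000 ppm the 4 libraries had 48.1, 67.0, 15.2 and 10.8 CPM. All 4 libraries at 10000 ppm lay above all 3 wild-type libraries, and both other dose groups overlapped the wild type. Kappa V sums were 18.6, 0.714 and 1.49 CPM in the wild type and 8.01, 19.9, 2.75 and 0.171 CPM at 1250 ppm. They were 3.66 to 76.2 CPM (median 16.4) at 2500 ppm and 28.5, 64.2, 14.2 and 9.01 CPM at 10000 ppm, and every pair of groups overlapped. The sums are given without a test, since the members were chosen with results of these data known.

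Igha, the IgA constant gene (chr12:113254830-113260236), was read in all 17 adult libraries. It was at 3.34, 0.732 and 2.15 CPM in the wild type, at 0.0679, 4.75, 0.222 and 0.0214 CPM at 1250 ppm and at 0.841 to 14.6 CPM (median 5.95) at 2500 ppm. At 10000 ppm it was at 33.1, 62.8, 0.0726 and 4.37 CPM. Replicates 1 and 2 at 10000 ppm lay above all other adult libraries, and replicate 3 lay below all wild-type libraries. No adult comparison of Igha passed the edgeR test with the main settings. For 10000 ppm the adjusted p of that test was 0.194 against wild type (log2 fold change 3.61 ± 1.60 SE). Against 1250 ppm it was 0.0522 (4.28 ± 1.46 SE). A call was gained in 0 of 12 alternative settings against wild type and in 4 of 13 against 1250 ppm.

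Ighg3, the IgG3 constant gene (chr12:113356224-113361232), had 0 reads in the 3 wild-type libraries. It had 1305, 21, 98 and 28 reads at 10000 ppm (20.4, 0.664, 1.78 and 0.498 CPM), 0 to 6 reads at 2500 ppm and 0, 160, 0 and 0 reads at 1250 ppm. All 4 libraries at 10000 ppm lay above all of the wild type, where the group mean was at least 99.2-fold the floor of 3 reads per library. The adjusted p of this comparison was 0.0734 in the edgeR test, and a call was gained in 1 of 12 alternative settings.

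Ighd (chr12:113406604-113416324) was at 0.542, 0.232 and 0.100 CPM in the wild type and at 0.560, 0.437, 0.256 and 0.150 CPM at 1250 ppm. It was at 0.426 to 1.25 CPM (median 0.651) at 2500 ppm and at 33.8, 3.64, 0.436 and 0.658 CPM at 10000 ppm. A single library, replicate 1 at 10000 ppm, held 80.0% of the adult Ighd reads, 2166 of 2707. Ighd was higher at 10000 than at 1250 ppm (log2 fold change 4.76 ± 1.10 SE, adjusted p = 0.010 in the edgeR test), although the groups overlapped. Against the wild type it did not pass (5.05 ± 1.28 SE, adjusted p = 0.0558 in the edgeR test). The Ighd call against 1250 ppm was lost in 2 of 13 alternative settings. A call against the wild type was gained in 4 of 12.

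Both lambda members were higher at 10000 than at 1250 ppm. Iglc3, a lambda constant gene (chr16:19065230-19065681), was at 0.271, 0 and 0 CPM in the wild type, at 0.0340, 0.131, 0.0342 and 0 CPM at 1250 ppm and at 0.205 to 2.47 CPM (median 0.773) at 2500 ppm. At 10000 ppm it was at 1.67, 11.5, 0.0726 and 0.160 CPM. Iglv2 (chr16:19260401-19260859) was at 4.73, 1.04, 0.163 and 0.765 CPM at 10000 ppm and at 0.0509, 0.0291, 0 and 0 CPM at 1250 ppm. The groups did not overlap for Iglv2 (log2 fold change 6.17 ± 1.40 SE, adjusted p = 0.00915 in the edgeR test) and did for Iglc3 (5.90 ± 1.57 SE, adjusted p = 0.018). The call of Iglc3 was lost in 5 of 13 alternative settings, with adjusted p up to 0.209 in those fits, and replicate 2 held 75.2% of its reads at 10000 ppm. Iglc3 overlaps 2010309G21Rik on the other strand, and without stated strand use the reads of both cannot be told apart.

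Against the wild type, few members passed. In each adult comparison 78 of the 147 members had enough reads to be tested, 41 heavy, 35 kappa and 2 lambda. A member can enter the test through the group in which it is high, so shares of tested members are no support. At 10000 ppm 1 member was higher than in the wild type and 0 were lower, beside 1.27% of all 13338 genes tested (0.952% higher), while DESeq2 called 18 members. The member called by edgeR was Igkv8-24, a kappa V segment, at 4.56, 2.28, 2.36 and 1.14 CPM at 10000 ppm and 0.0209, 0 and 0 CPM in the wild type. Pooled over libraries the groups had 558 reads and 1 read. The ratio per effective read was 415, with an exact 95% counting interval of 74.1 to 16407 that leaves out the spread between libraries. All 4 libraries lay above the 3 others, and the adjusted p was 0.0225 in the edgeR test. Without wild-type replicate 2 or without replicate 3, 0 members passed, while 7 passed without 10000 ppm replicate 3 and 3 without replicate 4.

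At 2500 ppm 0 members passed against the wild type in the edgeR test, where 15 had an unadjusted p under 0.05, DESeq2 called 10, and 0.487% of all genes passed. At 1250 ppm 1 member was higher, beside 11.4% of all genes (6.76% higher). It was Ighv14-2, a heavy V segment, at 0, 0.554, 0.0342 and 2.50 CPM at 1250 ppm and at 0 in the wild type, at least 13.2-fold higher (adjusted p = 0.0352 in the edgeR test). DESeq2 called 7 members here. The groups overlapped at 0, and without 1250 ppm replicate 5, or without any 1 of the 3 wild-type libraries, 0 members passed.

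The dose groups differed most between 10000 and 1250 ppm. There 19 members were higher at 10000 ppm and 0 lower: 10 heavy, 7 kappa and both lambda members. This is 24.4% of the tested members, beside 18.1% of all genes tested, 7.53% higher and 10.6% lower. That share is no support, since a member can enter the test through the group in which it is high. Of all 147 members it is 12.9%, which counts untested ones and has no like share beside it. The 19 were uneven between libraries. Replicate 1 held the most 10000 ppm reads for 9 of them, replicate 2 for 6, and replicates 3 and 4 for 2 each. Of them, 10 had reads in all 4 libraries at 10000 ppm, 9 had no read at 1250 ppm, and for only 5 the groups did not overlap. The share of all genes without overlap was not counted, so the 5 are a description. Without 1250 ppm replicate 1, 4 or 5 the count was 6, and without 10000 ppm replicate 1 or 2 it was 7.

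The largest fitted differences were at segments with 0 reads at 1250 ppm. Igkv3-4 was at 0.672, 9.62, 0.781 and 0 CPM at 10000 ppm (adjusted p = 0.0312 in the edgeR test), and Igkv6-32 at 2.83, 4.74, 0 and 0.587 CPM (adjusted p = 0.0283). Ighv14-4 was at 3.53, 2.44, 0.0182 and 0 CPM (adjusted p = 0.0369 in that test) and Ighv5-17 at 3.53, 1.39, 0 and 0 CPM (adjusted p = 0.0275). Ighv3-6 was at 0.875, 0.917, 1.89 and 0 CPM, led by replicate 3 (adjusted p = 0.0116 in the edgeR test). In each of these 5 segments at least 1 library at 10000 ppm was at 0, so the groups overlapped. Over 13 alternative settings the call was lost in 8 for Igkv6-32, in 7 each for Ighv14-4 and Ighv5-17, in 6 for Igkv3-4 and in 0 for Ighv3-6. Igkv8-24 had the smallest adjusted p of all members, 0.00304 in the edgeR test (log2 fold change 7.91 ± 1.19 SE). It had 558 reads at 10000 ppm and 2 at 1250 ppm, a pooled ratio of 314 (exact 95% counting interval 86.5 to 2598). This interval leaves out the spread between libraries.

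**Figure D4:**
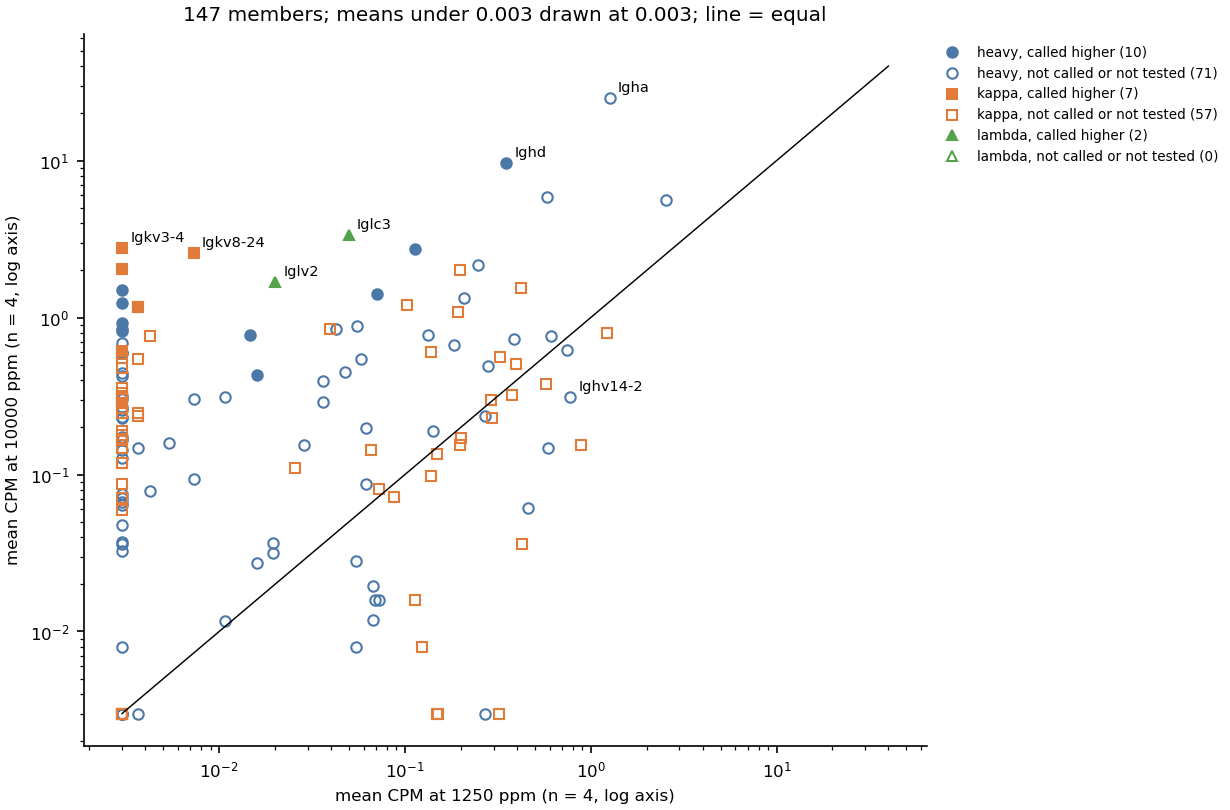
Mean CPM at 10000 ppm against mean CPM at 1250 ppm (both n = 4, log axes) for the 147 members, by locus. Filled points are the 19 members called higher at 10000 ppm, the line marks equal means, and members with a mean under 0.003 CPM are drawn at 0.003. Igha lies far above the line without a call, and Ighv14-2 lies below it.

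Between 10000 and 2500 ppm 0 members passed in the edgeR test, where 18 had an unadjusted p under 0.05, DESeq2 called 3, and 0% of all genes passed. Between 2500 and 1250 ppm Igkv8-24 was higher at 2500 ppm (4.98 ± 1.19 SE on the log2 scale, adjusted p = 0.0476 in the edgeR test), beside 1.91% of all genes (0.547% higher). It was at 0 to 0.659 CPM (median 0.323) at 2500 ppm, and without 1250 ppm replicate 1, 3, 4 or 5 or 2500 ppm replicate 1, 2, 3, 5 or 6, 0 members passed, while 2 passed without 2500 ppm replicate 4. The 3 comparisons that name Igkv8-24 share libraries.

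Which V segments were read differed from library to library. In the 16 adult libraries with at least 50 heavy V reads, 9 different segments led, and in the 15 with at least 50 kappa V reads, 9 as well. In wild-type replicate 1 a single pair held most reads of the V members. Ighv3-1 held 365 of 445 heavy V reads (82.0%, 83.1% after division by length), and Igkv8-27 held 837 of 894 kappa V reads (93.6%). In the other 2 wild-type libraries Ighv3-1 and Igkv8-27 had 0 reads. At 2500 ppm, replicate 4 had 537 of 1114 heavy V reads on Ighv13-2 (48.2%) and 3851 of 4445 kappa V reads on Igkv14-111 (86.6%). At 1250 ppm, replicate 5 had 117 of 137 heavy V reads on Ighv14-2 (85.4%).

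Ighv11-2, a segment known from B-1 cells, led 7 of the 16 libraries, in all 4 adult groups. At 1250 ppm it held 50.5% of heavy V reads in replicate 1 and 55.9% in replicate 4 (45.7% and 52.0% after division by length). In the same 2 libraries Igkv14-111 led the kappa V reads, with 48.7% and 32.9%. Ighv11-2 was at 4.08, 1.62, 4.53 and 0 CPM at 1250 ppm, 0.125, 0.214 and 0.321 CPM in the wild type, 0 to 4.53 CPM (median 0.873) at 2500 ppm and 8.90, 10.3, 2.65 and 0.711 CPM at 10000 ppm.

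The spread of reads over segments was summarised by an effective number, for libraries with at least 50 reads of the class. This number is the inverse of the chance that a pair of different reads of the library lie on the same segment. It is 1 when a single segment holds all reads. For heavy V it was 1.48 and 7.25 in the wild type, 1.37 to 14.6 at 1250 ppm (median 2.57), 4.0 to 12 at 2500 ppm (median 10.1) and 8.50 to 17.5 at 10000 ppm (median 13.7). For kappa V it was 1.14 and 6.84 in the wild type, 2.70 to 16.9 at 1250 ppm (median 4.11), 1.33 to 9.51 at 2500 ppm (median 6.08) and 8.82 to 18.9 at 10000 ppm (median 11.6). Both 10000 ppm ranges overlapped those of the other doses and lay above the 2 wild-type libraries measured. Wild-type replicate 2, with 49 heavy V and 40 kappa V reads, fell under the cutoff, so the whole wild type was not compared. The effect of read number on these values was not tested. At 10000 ppm 31 to 57 heavy V segments and 20 to 50 kappa V segments had a read, and at 1250 ppm 6 to 33 and 2 to 29. Replicate 5 at 1250 ppm held only 8 kappa V reads and has no effective number for kappa V.

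**Figure D5:**
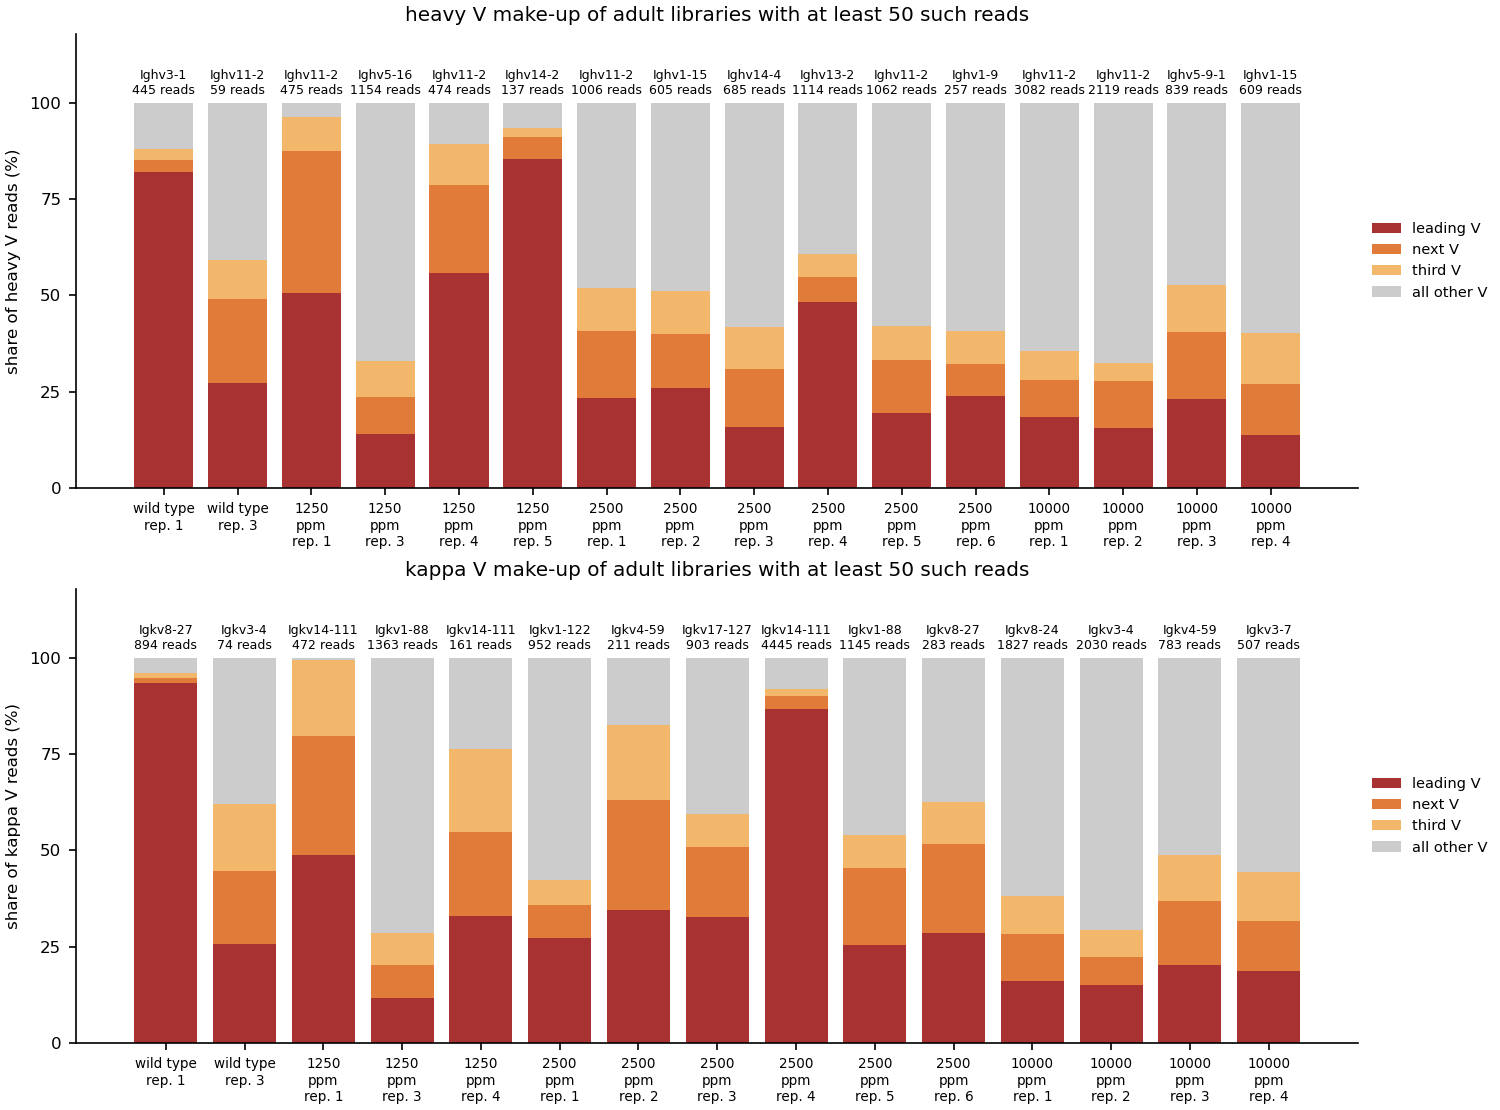
Share of heavy V (top) and kappa V (bottom) reads held by the leading, the next, the third and all other V segments in each adult library with at least 50 such reads (percent). Reads are those on V members, and the leading segment and the read number stand above each bar. Wild-type replicate 1 and 2500 ppm replicate 4 are led by single kappa segments with 93.6% and 86.6%, and the leaders at 10000 ppm hold 13.6% to 23.0%.

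Reads of single members were concentrated in the same way. For 79 of the 147 members, at least 50% of the adult reads came from 1 library, and for 26 members at least 90%. The median member had a read in 6 of 17 adult libraries, and Igha and Ighd were the ones read in all 17. In the wild type 57 members had a read and 90 had none.

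On the scale of CPM per kb of exon, averaged over the 9 group means, the leading members were Igkv14-111 (4.05), Ighv11-2 (2.46), Igkv8-27 (2.35) and Igha (1.45). Ighv9-3 (1.22), Iglc3 (1.11), Igkv6-20 (1.10) and Igkv3-4 (1.0) followed, and Ighe (0.0202) was lowest among the constant genes. Igkv14-111 and Igkv8-27 rested on few libraries, as the make-up shows, while Ighv11-2 had reads in 15 of the 17 adult libraries. Of the other leading V segments, Ighv9-3 was at 1.19, 8.29, 1.18 and 0.249 CPM at 10000 ppm and at 0, 0 and 0.0602 CPM in the wild type. Ighv6-6 was at 4.62, 3.04, 0.508 and 0.445 CPM and at 0, 0 and 0.120 CPM in these groups. Igkv6-20 was at 3.53, 2.63, 0 and 0.0178 CPM at 10000 ppm and at 0, 0.125 and 0.120 CPM in the wild type. Igkv4-59 was at 2.51, 2.25, 2.87 and 0.373 CPM and at 0, 0.125 and 0.261 CPM.

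Several genes of the B lineage were higher in dosed than in wild-type marrow. Of 9 tested surrogate light chain and receptor partners, 4 were higher at 10000 ppm, 3 at 2500 ppm and 5 at 1250 ppm. Lower calls numbered 0 at every dose. Of all genes tested, 1.27%, 0.487% and 11.4% passed in these comparisons. The list summed to 560 to 795, 536 to 655 and 548 to 590 CPM at these doses. In the wild type it summed to 544 to 610 CPM, so every dose overlapped it. The median log2 fold change of the 9 was 2.90 at 10000 ppm. Cd79a was at 0.542, 0.321 and 0.241 CPM in the wild type and at 13.2, 16.5, 1.80 and 3.02 CPM at 10000 ppm (log2 fold change 4.55 ± 0.83 SE, adjusted p = 0.0247 in the edgeR test). At 1250 ppm it was at 2.82, 3.83, 4.68 and 6.74 CPM. Of 13 transcription factors, 5 were higher at 10000 ppm, among them Pax5 at 9.77 ± 7.54 CPM (n = 4) against 0.365 ± 0.318 CPM (n = 3). Between 10000 and 1250 ppm 0 of the 9 receptor partners passed, and 4 of the 13 factors were higher, Foxo1, Ikzf1, Ikzf3 and Bach2. The 8 tested genes of recombination and end joining gave 0 calls at 10000 ppm against wild type. Dntt, which adds bases at the joints, was at 29.8 ± 14.1 against 3.72 ± 2.85 CPM there (adjusted p = 0.0511 in the edgeR test).

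Markers of mature B cells and plasma cells were read in the same adult libraries. Of 8 tested plasma cell markers 1 was higher at 10000 ppm than in the wild type, Mzb1, at 4.84, 5.76, 0.654 and 0.640 CPM against 0.334, 0.0357 and 0.161 CPM. The plasma cell list summed to 191 to 314 CPM at 10000 ppm, 287 to 340 at 2500 ppm, 307 to 382 at 1250 ppm and 342 to 373 in the wild type, most of it Xbp1. Of 9 mature B cell markers 0 passed at 10000 ppm against wild type, and 2 were higher than at 1250 ppm, Ms4a1 and Fcmr. That list summed to 58.9 to 83.1, 49.5 to 63.5, 35.8 to 55.2 and 63.5 to 75.8 CPM in the same order. Ms4a1 was at 0.390, 1.42, 0.0726 and 0.107 CPM at 10000 ppm, at 0 in 3 of 4 libraries at 1250 ppm and at 0.0209, 0.0357 and 0 CPM in the wild type. Of 7 macrophage markers 4 were higher at 1250 ppm than in the wild type, Cd5l, C1qa, C1qb and C1qc, and 0 passed at 10000 ppm, although the list summed to 199 to 249 CPM at 1250 ppm and 461 to 542 CPM in the wild type. The part of such cells in the immunoglobulin reads was not tested.

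Near-identical copies limit how far reads name a segment. The nearest other V gene was a median of 95.4% identical for heavy and 95.1% for kappa V members, and 40 of 76 and 32 of 64 members had a copy at 95% or more. Ighv11-2 differed by 4 edits from Ighv11-1, which had 8 reads beside 2275. Igkv6-20 differed by 5 edits from Igkv6-29 (80 reads beside 942), and Ighv14-2 by 10 from Ighv14-1 (13 beside 306). The segment nearest to Igkv14-111, Igkv14-126 at 91.5%, was not analysed here. How the authors' counting treated reads that fit several segments is not given in the sources used here, so values of single segments with a near copy are uncertain.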

How the data were processed

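The deposited table held raw counts per Ensembl gene for 32 libraries of total RNA from which ribosomal RNA had been removed. Per the series' design text, reads were 2 × 150 bases and were aligned by the authors with HISAT2 (version 2.1.0), and the build is GRCm38. The counting tool, strand setting, treatment of multiply aligned reads and gene filter are not given in the sources used here. Symbols, biotypes and spans came from GENCODE M21, which matched 27668 of the 27728 identifiers. V sequences were the coding parts of its transcripts, compared with edlib (version 1.3.9.post1).

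Counts were scaled by TMM factors over all 32 libraries. Comparisons used edgeR (version 4.0.16, R 4.3.3) quasi-likelihood tests after filterByExpr, in 1 model of the 9 fetal batch A deletion and control libraries and 1 of the 17 adult libraries, with Benjamini-Hochberg adjustment over all genes and a threshold of 0.05. This gave 9 comparisons, and the fit was tested on simulated data. Alternatives were DESeq2 (version 1.42.0), RLE factors, no count filter, library sizes without the members, a replicate block and leaving out each library. A lower bound of a fold change set a group with 0 reads to 3 reads per library.

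Named were every constant member, in each locus the 5 V members and 2 J members with the highest mean of the 9 group means, and in each comparison up to 5 called members per direction with the largest fold change. Other members named for the V make-up, the fetal reads, the read threshold, near copies or overlaps were chosen after their values were seen, as were Igkv8-24 between 10000 and 1250 ppm and listed genes beyond the 4 of smallest adjusted p. The members and gene lists were chosen with earlier results of these data known. U2af1 is not reported here.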

Additional observations from a re-analysis of the deposited data

Results flagged for a closer look

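A library stood apart from the rest of its group in 22 of the 55 sets of group values tested with Dixon's criterion in groups of 4 to 10 libraries, where chance gives about 1 in 20 for values with a normal spread. In 11 of the 22 every other library of the group was at 0, which meets the criterion by construction, so that share does not apply to them. Single libraries recurred among them. Replicate 3 at 1250 ppm was high for Igha (4.75 CPM), Ighg3 (2.33), Ighv9-3 (0.452), Ighv6-6 (0.991), Igkv8-27 (0.408), Igkv6-20 (1.68) and Igkv4-59 (0.787). Replicate 2 at 10000 ppm was high for Iglc3 (11.5 CPM), Ighv9-3 (8.29), Ighv3-1 (0.0316), Ighv13-2 (3.10), Igkv8-27 (4.46) and Igkv3-4 (9.62). Replicate 1 at 10000 ppm was high for Ighd (33.8 CPM) and Ighg3 (20.4).

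At 2500 ppm, replicate 4 was high for the kappa V sum (76.2 CPM), Igkv14-111 (66.0) and Ighv13-2 (9.20). Replicate 1 of that dose was high for Ighv3-1 (0.13 CPM), and replicate 3 for Ighe (0.0673). In fetal liver, S34F replicate 1 held the 1 kappa V read of its group, which gave 0.0305 CPM both for the kappa V sum and for Igkv14-111. Values under about 0.05 CPM rest on 1 to 3 reads.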

How the results depend on the processing

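The calls of Ighd in the fetal comparisons were the same in all 11 alternatives, with adjusted p between 4.46e-05 and 0.0281 for the homozygous deletion against the flox control. The adult counts moved more. DESeq2 called 18 members for 10000 ppm against wild type, 10 for 2500 ppm, 7 for 1250 ppm, 3 for 10000 against 2500 ppm and 7 for 2500 against 1250 ppm. Without a count filter the counts were 2 for 10000 ppm and 2 for 1250 ppm against wild type, 28 for 10000 against 1250 ppm and 0 for 2500 against 1250 ppm. RLE factors and library sizes without the members each gave 0 for 2500 against 1250 ppm. Leaving out 1 library at a time gave 6 to 22 members for 10000 against 1250 ppm, 0 to 7 for 10000 ppm against wild type, 0 to 1 for 1250 ppm against wild type and 0 to 2 for 2500 against 1250 ppm. Where a group then held few libraries, the spread was shared over the model, and the cause of these shifts was not tested. The labels give no pairing by replicate number, and same-numbered libraries of different groups had correlations of -0.16 to 0.14 in fetal and -0.27 to 0.52 in adult data. Between 2500 and 10000 ppm these were 0.34, 0.33, -0.27 and 0.52 for replicates 1 to 4, so they did not deviate together in every pair. With the replicate block the counts were 4 for 10000 ppm and 0 for 1250 ppm against wild type, 9 for 10000 against 1250 ppm, 7 of them among the 19, and 0 for 2500 against 1250 ppm. No result reversed. Over all alternatives of the named members, calls were kept 97 times and lost 55 times, and results without a call stayed so 73 times and gained a call 12 times. Depth limits the fetal V values, since all members together held 0 to 90 reads per fetal library.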

Other observations

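Reads also fell on annotated immunoglobulin pseudogenes, which are no members. Ighv1-41 had 462 reads, with 36 to 41 in each wild-type library, 6 to 20 at 1250 ppm, 6 to 56 at 2500 ppm, 2 to 69 at 10000 ppm and 0 to 2 in each fetal library. The 3 wild-type libraries were alike in Ighv1-41, while their heavy V sums differed (9.28, 0.875 and 1.18 CPM). Igkv4-56 had 15 reads, all in 1250 ppm replicate 3, and Ighv8-10 had 10 of its 15 reads in 1250 ppm replicate 1. Ighv1-73 had 48 reads.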
